A study of Mus musculus with 6 samples.

Results

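Mitosis and chromosome segregation genes were followed in MIN6 cells, a line from a mouse insulinoma that makes insulin, after an siRNA against Hlxb9. Hlxb9 (gene symbol Mnx1) is a homeobox transcription factor. The set was given as 45 gene symbols, from the cyclins that start mitosis to the condensins that compact chromosomes. Probe sets annotated to 1 of these symbols alone were found for 44 genes, out of 18193 genes measured in this way. Ccnb1 had no such probe set and was not analysed here. Each gene was read from its brightest probe set, by the mean over 6 arrays, and the remaining probe sets of the gene were checked against it.

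There were 3 arrays of MIN6 cells given Hlxb9 siRNA and 3 arrays of MIN6 cells given a negative control siRNA, taken 72 hours after transfection by nucleofection and a lipid reagent. The cells were grown in low glucose medium with serum. Only Hlxb9 siRNA transfections with a protein knockdown of over 75%, judged by western blot, went on to arrays. The labels also call the samples sorted cells and name no gate. Values are log2 signals, on which 1 unit is a 2-fold step, and 1 probe set's level cannot be set against another's. Each array holds RNA pooled over all cells of its sample, so that fewer cells in mitosis and less RNA per mitotic cell cannot be told apart.

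Mitosis begins when Cdk1, bound to cyclin A or B, is released from inhibitory phosphorylation by Cdc25 phosphatases. Kinetochores built on centromeres then attach chromosomes to spindle microtubules, and the spindle checkpoint holds back Cdc20 and the anaphase-promoting complex until all are attached. Destruction of securin frees separase to cut cohesin, and the sister chromatids part. Transcripts of this machinery accumulate in G2 and M phase, so that in a cell population their levels follow proliferation. Beta cells in the adult divide rarely, whereas an insulinoma line in culture cycles.

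Control siRNA replicate 3 stood apart from the other 5 arrays. Its correlations with them were 0.988 to 0.991, while correlations among the others reached 0.997. On the Gapdh control probe sets the 3′ end exceeded the 5′ end by 2.13 log2 on that array, against 0.65 to 0.78 on the other 5. Medians over all probe sets lay between 5.08 and 5.20. Beta cell transcripts were bright in all arrays, with Ins2 at 13.79, 13.83 and 13.82 after Hlxb9 siRNA, against 13.83, 13.86 and 13.87 after control siRNA. Gcg and Sst, hormones of other islet cells, were bright too, with means of 12.87 and 13.00 for Gcg and of 13.10 and 13.12 for Sst after Hlxb9 siRNA and control siRNA. Ghrl, the remaining measured marker of other islet cells, was dim, with means of 4.85 after Hlxb9 siRNA and 5.30 after control siRNA. All 4 measured leukocyte markers and all 4 endothelial markers lay below the median of all probe sets, as did 5 of 6 fibroblast markers.

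Mnx1, the target, read 7.53, 7.41 and 7.28 after Hlxb9 siRNA, against 7.82, 7.50 and 7.77 after control siRNA. The groups overlapped, since Hlxb9 siRNA replicate 1 lay above control siRNA replicate 2. In the pairs of equal number Mnx1 was lower in all 3, by 0.28, 0.093 and 0.49 log2. The difference, Hlxb9 siRNA minus control siRNA, was -0.29 ± 0.13 log2 (moderated SE, n = 3 each), and it did not pass (limma adjusted p = 0.659, exact two-sided permutation p = 0.2, where 3 against 3 arrays cannot go below 0.1). With the replicate number as a block it did not pass either (limma unadjusted p = 0.0578, adjusted p = 0.544). The comparison below is therefore one between transfections selected on protein, in which the transcript itself was not shown to differ.

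None of the 44 mitosis genes passed limma's test over all 45037 probe sets at a Benjamini-Hochberg adjusted p of 0.05, with adjusted p from 0.645 for Pttg1 to 0.999 for Mki67. The same threshold called 0 of all probe sets, or 0.00%. At an unadjusted limma p of 0.05 there were 2 higher genes, Pttg1 and Nuf2, against 4.21% of all genes, and 1 lower gene, Kif22, against 3.74%. These 3 of 44 stand beside 7.95% of all genes in either direction, and 8.32% of genes at least as bright as the dimmest of the 44. The differences of the 44 genes ran from -0.33 to 0.44 log2, 19 above 0 (50.6% of all genes) and 25 below, with a median of -0.010, beside 0.0023 over all genes. With each array centred on its median the split was 14 above and 30 below, with a median of -0.062, beside -0.050 over all genes. The lowest Hlxb9 siRNA array exceeded the highest control for 5 genes, Pttg1, Nuf2, Ndc80, Kif23 and Ncapg, against 9.55% of all genes and 13.7% of genes at least as bright. For Kif22 alone they lay below, against 7.75% of all genes and 7.66% of genes at least as bright. In the pairs of equal replicate number, 8 genes were higher in every pair (19.0% of all genes) and 3 were lower in every pair (16.5%).

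**Figure D1:**
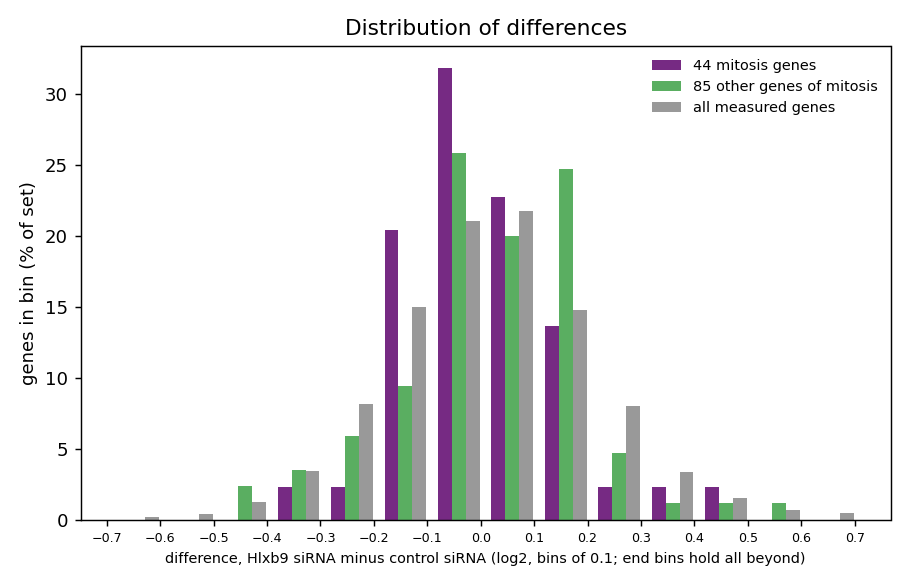
Share of genes (vertical axis, %) by difference between Hlxb9 siRNA and control siRNA (horizontal axis, log2, bins of 0.1) for the 44 mitosis genes, 85 other genes of mitosis and all 18193 measured genes. The 44 genes centre on 0 with a median of -0.010, and no bar for them lies beyond 0.5 in either direction.

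The intervals say how large a change on a gene's brightest probe set could have been missed. For 39 of the 44 genes the 95% interval of the difference lay within 1.5-fold in both directions, and for all 44 within 2-fold (97.9% of all genes). Within 1.25-fold it lay for 11 genes, against 17.3% of all genes. Over all genes 77.4% lay within 1.5-fold, and 79.0% of genes at least as bright as the dimmest of the 44. The 5 intervals that reached beyond 1.5-fold were those of Pttg1 and Nuf2 on the higher side and of Kif22, Cenpf and Kif2c on the lower side. The 44 intervals together spanned -0.64 to 0.71 log2. They do not bound the other probe sets of these genes. Bub3 and Bub1b lay within 1.5-fold on their brightest probe sets. On their dimmest probe sets the intervals reached 0.94 log2 for Bub3 and -0.76 log2 for Bub1b. That probe set of Bub3 lay below the median of all probe sets in both groups.

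**Figure D2:**
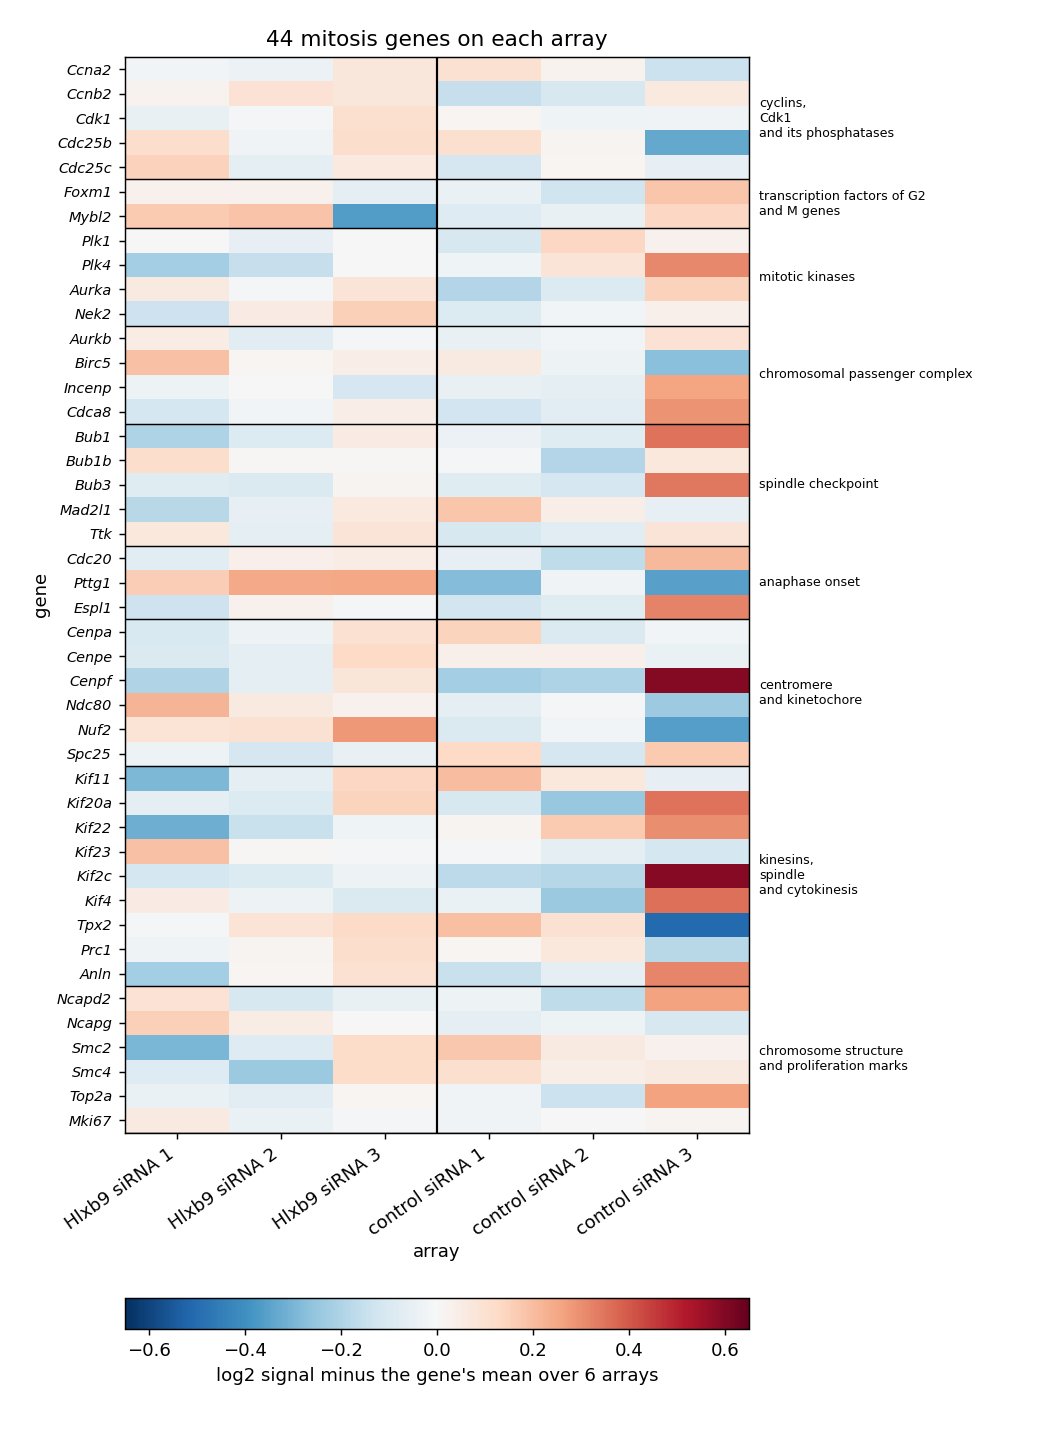
Log2 signal of each of the 44 genes on each array, as the difference from that gene's mean over 6 arrays (colour, log2), with Hlxb9 siRNA arrays left of control siRNA arrays and genes grouped by role. The strongest colours sit in the column of control siRNA replicate 3, where Cenpf and Kif2c are high and Tpx2 is low.

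Promoter letters were a property that the choice of symbols did not use. RefSeq promoter windows (build GRCm38.p6), from 250 bases before to 50 after a start site, were held for 36 of the 44 genes, 38 windows in all. The cell cycle homology region, a short element through which the MuvB-containing complexes act on G2 and M genes, was searched as TTTGAA or TTCGAA. It was present in 78.9% of these windows, against 19.2% of all 32851 windows of the table and 15.1% of the 18109 windows of measured genes, and 8 of the 36 genes had none. CCAAT boxes, bound by NF-Y, were searched as CCAAT and were present in 76.3%, against 37.4% of all windows. Both elements together were in 71.1%, against 7.52%. The other mitosis genes described last lay between, with the cell cycle homology region in 43.9% of their 82 windows, CCAAT in 54.9% and both in 28.0%. A forkhead motif, searched as GTAAACA, was in 2.63%, against 3.65%. All motifs were searched on both strands, and overlaps between motifs were not removed. A match describes the letters of the window and is not a shown binding site.

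The windows of Cdk1 (chr10:69352863-69353162, minus strand), Ccnb2 (chr9:70421505-70421804, minus strand) and Plk1 (chr7:122159185-122159484, plus strand) are shown because they carry both elements, and that of Kif22 (chr7:127042371-127042670, minus strand) because its gene had the lowest difference. Those of Pttg1 (chr11:43425932-43426231, minus strand), Nuf2 (chr1:169531415-169531714, minus strand) and Ndc80 (chr17:71526808-71527107, minus strand) belong to the 3 highest differences. Capitals mark the searched motifs on either strand, so that ATTGG is a CCAAT box and TTCAAA a cell cycle homology region read on the opposite strand. The sequences run 5′ to 3′ along the gene's strand.
Cdk1: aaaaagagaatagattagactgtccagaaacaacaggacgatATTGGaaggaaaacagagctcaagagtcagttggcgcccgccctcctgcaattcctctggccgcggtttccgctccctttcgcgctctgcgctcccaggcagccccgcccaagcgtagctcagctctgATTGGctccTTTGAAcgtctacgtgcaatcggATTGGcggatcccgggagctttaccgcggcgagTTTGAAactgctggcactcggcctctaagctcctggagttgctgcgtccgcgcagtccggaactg
Ccnb2: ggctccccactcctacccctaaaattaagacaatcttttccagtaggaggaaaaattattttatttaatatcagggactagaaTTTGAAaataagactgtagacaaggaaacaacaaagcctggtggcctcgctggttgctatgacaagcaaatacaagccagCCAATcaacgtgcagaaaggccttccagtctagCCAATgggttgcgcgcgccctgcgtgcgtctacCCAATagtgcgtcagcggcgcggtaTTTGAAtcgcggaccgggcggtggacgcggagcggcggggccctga
Plk1: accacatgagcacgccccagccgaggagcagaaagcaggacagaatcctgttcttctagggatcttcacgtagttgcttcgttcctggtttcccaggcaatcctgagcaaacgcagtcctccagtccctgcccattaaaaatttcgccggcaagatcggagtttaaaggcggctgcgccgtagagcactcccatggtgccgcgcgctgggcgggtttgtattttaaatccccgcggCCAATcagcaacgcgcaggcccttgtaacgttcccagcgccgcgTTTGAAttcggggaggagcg
Kif22: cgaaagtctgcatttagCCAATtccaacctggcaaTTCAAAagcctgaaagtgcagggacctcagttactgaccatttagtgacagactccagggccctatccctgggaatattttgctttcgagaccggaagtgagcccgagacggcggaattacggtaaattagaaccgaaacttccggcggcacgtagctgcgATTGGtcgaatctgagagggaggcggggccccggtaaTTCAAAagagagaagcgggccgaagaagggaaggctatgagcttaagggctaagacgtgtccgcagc
Pttg1: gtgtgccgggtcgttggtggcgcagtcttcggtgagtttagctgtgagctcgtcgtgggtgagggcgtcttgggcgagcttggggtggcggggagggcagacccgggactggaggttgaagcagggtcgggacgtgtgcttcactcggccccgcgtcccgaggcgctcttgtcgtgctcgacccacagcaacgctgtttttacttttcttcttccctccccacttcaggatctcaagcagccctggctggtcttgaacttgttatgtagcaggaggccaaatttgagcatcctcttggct
Nuf2: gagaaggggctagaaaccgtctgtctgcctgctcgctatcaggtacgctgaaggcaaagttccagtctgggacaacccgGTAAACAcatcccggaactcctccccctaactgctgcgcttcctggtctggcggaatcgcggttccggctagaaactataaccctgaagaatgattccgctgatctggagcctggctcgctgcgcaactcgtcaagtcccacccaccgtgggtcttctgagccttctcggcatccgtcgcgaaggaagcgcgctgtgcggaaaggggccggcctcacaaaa
Ndc80: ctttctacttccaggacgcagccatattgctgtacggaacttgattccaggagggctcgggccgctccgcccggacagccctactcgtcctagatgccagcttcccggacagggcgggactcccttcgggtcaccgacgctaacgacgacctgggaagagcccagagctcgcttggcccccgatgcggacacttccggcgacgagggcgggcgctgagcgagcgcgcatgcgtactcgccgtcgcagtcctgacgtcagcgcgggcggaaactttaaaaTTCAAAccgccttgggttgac
In the Ccnb2 window the 3 CCAAT boxes start 33 bases apart, and the last is followed by TTTGAA at position 5 from the start site. In Cdk1 the 2 boxes nearest the start site are 32 bases apart. The Pttg1 and Nuf2 windows hold neither a CCAAT box nor a cell cycle homology region, Nuf2 has the forkhead letters, and Ndc80 has only TTCAAA. Over the 28 genes with a cell cycle homology region in a window the median difference was -0.041, and over the 8 genes without one it was 0.024. These windows were compared with the differences after the values were seen, as a description with no test.

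The kinase that starts mitosis and its cyclins had no difference that passed. Cdk1 read 11.37, 11.41 and 11.53 after Hlxb9 siRNA, against 11.44, 11.40 and 11.40 after control siRNA, with a difference of 0.027 ± 0.098 log2 (SE) and a 95% interval of -0.20 to 0.25. The control arrays fell inside the range of the Hlxb9 siRNA arrays. Ccna2, the cyclin of S and G2 phase, differed by 0.013 ± 0.11. On its dimmer probe set Ccna2 stood at 0.20, with all Hlxb9 siRNA arrays above the controls. Ccnb2, a B-type mitotic cyclin, differed by 0.13 ± 0.10. Ccnb2 was higher in all 3 pairs of equal number, by 0.17, 0.20 and 0.011 log2. The phosphatases that remove inhibitory phosphate from Cdk1 lay at 0.14 ± 0.14 for Cdc25b and 0.099 ± 0.10 for Cdc25c. All 5 measured genes of the group had differences above 0, beside 50.6% of all genes, and all of their intervals included 0. With each array centred on its median 3 of the 5 were above 0. Without control siRNA replicate 3 it was 4 of the 5, with a median of 0.021.

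Foxm1 and Mybl2 (B-Myb), the transcription factors that drive G2 and M genes, had almost equal means in the groups. Foxm1 read 8.72, 8.73 and 8.63 after Hlxb9 siRNA, against 8.65, 8.57 and 8.87 after control siRNA, a difference of -0.0033 ± 0.11 log2. Mybl2 read 6.59, 6.60 and 6.05 after Hlxb9 siRNA, against 6.33, 6.37 and 6.55 after control siRNA, a difference of -0.0025 ± 0.17. The lowest Mybl2 value was that of Hlxb9 siRNA replicate 3, and the other 2 Hlxb9 siRNA arrays were above all controls. The 3 other probe sets of Foxm1 differed by -0.15, -0.18 and -0.12. Without control siRNA replicate 3 they stood at 0.047, 0.035 and -0.088. The last of them lay below the median of all probe sets in both groups.

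Among mitotic kinases, Plk1, which acts in mitotic entry, at centrosomes and at kinetochores, read 7.43, 7.38 and 7.43 after Hlxb9 siRNA, against 7.33, 7.56 and 7.46 after control siRNA. Its difference was -0.040 ± 0.10 log2, and the Hlxb9 siRNA values lay inside the control range. Plk4, the kinase of centriole duplication, read 11.06, 11.14 and 11.28 after Hlxb9 siRNA, against 11.25, 11.37 and 11.60 after control siRNA. It was lower in all 3 pairs, by 0.19, 0.23 and 0.31 log2, while the groups overlapped at Hlxb9 siRNA replicate 3 and control siRNA replicate 1. The difference of -0.25 ± 0.13 did not pass (limma adjusted p = 0.671), and the remaining probe sets of Plk4 stood at -0.074 and 0.083. Aurka, the centrosomal Aurora kinase, differed by 0.086 ± 0.12 and Nek2, a kinase of centrosome separation, by 0.051 ± 0.11.

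The chromosomal passenger complex corrects faulty attachments at the centromere and acts again in cytokinesis. Its kinase Aurkb read 10.03, 9.91 and 9.97 after Hlxb9 siRNA, against 9.93, 9.96 and 10.07 after control siRNA, a difference of -0.017 ± 0.10 log2. The ranges of the groups almost coincided. Birc5 (survivin), which docks the complex, differed by 0.16 ± 0.12, the scaffold Incenp by -0.097 ± 0.12 and Cdca8 (borealin) by -0.060 ± 0.14. Without control siRNA replicate 3 these 4 genes lay between 0.0067 and 0.070.

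For the spindle checkpoint, Bub1, the kinase that recruits the other components to kinetochores, read 10.02, 10.13 and 10.28 after Hlxb9 siRNA, against 10.18, 10.15 and 10.58 after control siRNA. The highest value was control siRNA replicate 3, and the difference of -0.16 ± 0.15 log2 became -0.021 without that array. Bub1b (BubR1) differed by 0.087 ± 0.11 on its brightest probe set and by 0.13 on the next. The dimmest probe set of Bub1b stood at -0.38, lower in all 3 pairs with overlapping groups (limma adjusted p = 0.653). It is 1 of the 2 lower probe sets counted below at an unadjusted threshold. Mad2l1 (Mad2), which with BubR1 restrains Cdc20, differed by -0.11 ± 0.11. Ttk (Mps1), the kinase at the head of the checkpoint, differed by 0.066 ± 0.11. Bub3, the partner of Bub1 and BubR1, differed by -0.10 ± 0.14 on its brightest probe set.

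The largest difference of the set lay at anaphase onset. Pttg1 encodes securin, the inhibitor and chaperone of separase, and read 11.71, 11.79 and 11.80 after Hlxb9 siRNA, against 11.26, 11.52 and 11.20 after control siRNA. All 3 Hlxb9 siRNA arrays were above every control array. The means were 11.77 ± 0.051 after Hlxb9 siRNA and 11.33 ± 0.17 after control siRNA (SD, n = 3 each), and the level was 1.35-fold higher (0.44 ± 0.12 log2, SE, 95% interval 0.16 to 0.71). It did not pass over all probe sets (limma adjusted p = 0.645). A second probe set read 9.30, 9.38 and 9.30 after Hlxb9 siRNA, against 9.01, 9.13 and 8.45 after control siRNA, again without overlap and at 0.47 log2, and the dimmest of the 3 differed by 0.24 with overlapping groups. Control siRNA replicate 3 was the lowest array on both bright probe sets, and without it the difference of the brightest was 0.37. Pttg1 was then the only one of the 44 genes at an unadjusted limma p under 0.05, against 10.2% of all genes.

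The partners of securin had differences close to 0 on their brightest probe sets. Espl1, which encodes separase itself, read 8.01, 8.17 and 8.13 after Hlxb9 siRNA, against 8.03, 8.06 and 8.47 after control siRNA, a difference of -0.081 ± 0.14 log2 that stood at 0.059 without control siRNA replicate 3. Cdc20, the activator of the anaphase-promoting complex that targets securin, read 11.32, 11.42 and 11.43 after Hlxb9 siRNA, against 11.33, 11.22 and 11.60 after control siRNA. Its difference was 0.0073 ± 0.12 on a probe set with the suffix _x_at, given by the array maker where probes may cross-hybridise. A second _x_at probe set of Cdc20 stood at -0.32 with all Hlxb9 siRNA arrays below the controls, and its plain _at probe set at 0.077 with overlap. Differences between these genes were not tested.

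**Figure D3:**
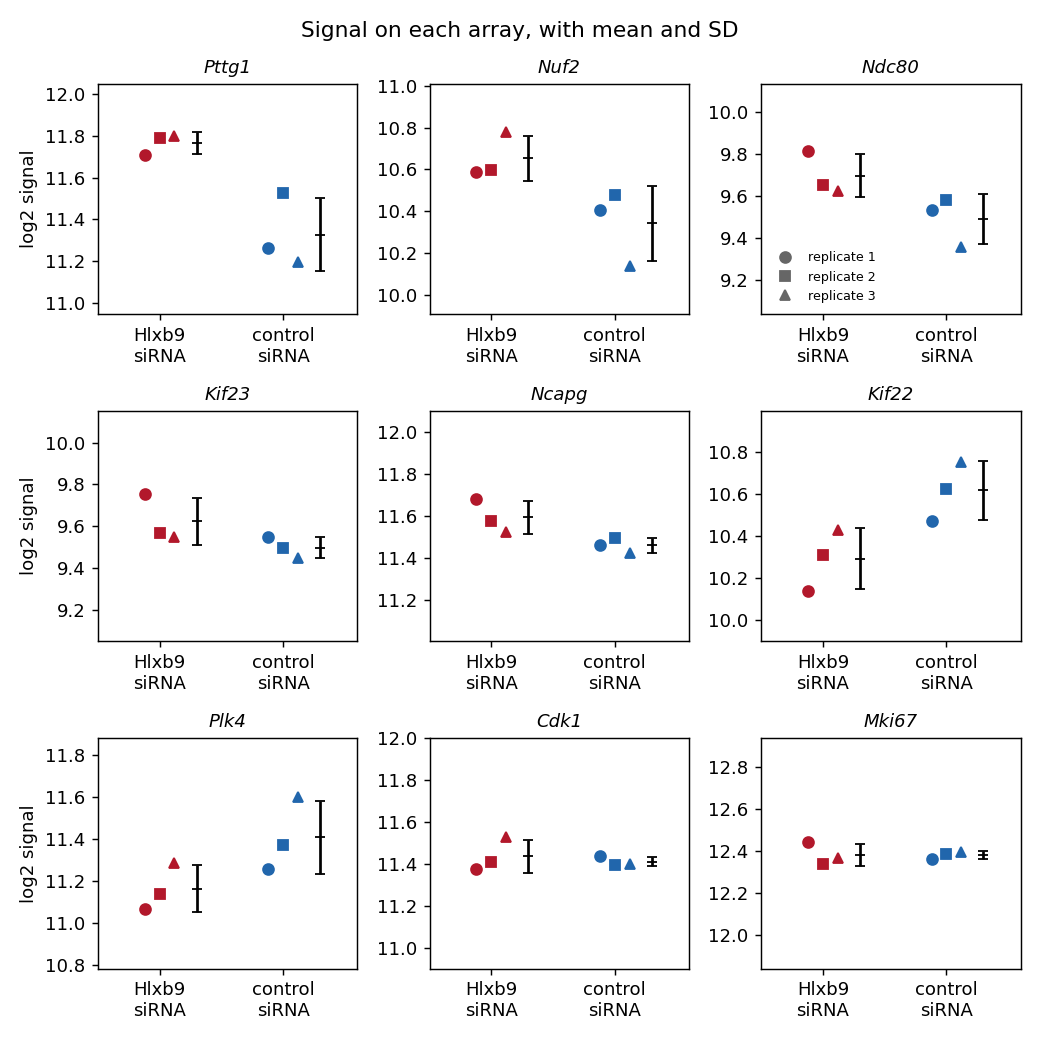
Log2 signal (vertical axis, 1.1 log2 in each panel) of 9 genes on each array, with circles, squares and triangles for replicates 1, 2 and 3 and the mean ± SD beside each group, Hlxb9 siRNA left of control siRNA. In the first 5 panels all Hlxb9 siRNA points lie above the control points, Kif22 shows the opposite, and Plk4, Cdk1 and Mki67 overlap.

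At the kinetochore the 2 subunits that bind microtubules through the Ndc80 complex both lay on the higher side. Nuf2 read 10.59, 10.60 and 10.78 after Hlxb9 siRNA, against 10.41, 10.48 and 10.14 after control siRNA, 1.24-fold higher (0.31 ± 0.13 log2, SE, limma adjusted p = 0.653). Ndc80 (Hec1), its partner in the same coiled coil, read 9.81, 9.65 and 9.62 after Hlxb9 siRNA, against 9.53, 9.58 and 9.35 after control siRNA, a difference of 0.21 ± 0.11. In both genes the arrays did not overlap, and control siRNA replicate 3 was the lowest. Without that array the differences were 0.21 and 0.14. On their brightest probe sets the remaining subunits of the complex lay nearer 0 or below it. Spc25 stood at -0.13 ± 0.11 and, from the list of other mitosis genes, Spc24 at 0.041 ± 0.10. The dimmer probe set of Spc25 stood at 0.20 with overlapping groups, and at -0.055 without control siRNA replicate 3. The place of Spc25 beside Nuf2 and Ndc80 thus depended on the probe set.

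Cenpa, the histone H3 variant that marks the centromere, read 9.43, 9.50 and 9.63 after Hlxb9 siRNA, against 9.68, 9.44 and 9.51 after control siRNA, a difference of -0.023 ± 0.11 log2. Its groups overlapped throughout. Cenpe, a kinetochore kinesin, differed by -0.017 ± 0.11. Cenpf, a large kinetochore and nuclear matrix protein, read 10.21, 10.35 and 10.49 after Hlxb9 siRNA, against 10.19, 10.21 and 11.01 after control siRNA. Control siRNA replicate 3 stood well above the other 5 arrays, and the difference was -0.12 over all arrays and 0.15 without it.

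Kinesins and spindle factors held the lowest difference of the 44 genes. Kif22 (Kid), the kinesin that pushes chromosome arms away from the poles, read 10.14, 10.31 and 10.43 after Hlxb9 siRNA, against 10.47, 10.63 and 10.75 after control siRNA. All Hlxb9 siRNA arrays were below all controls, and the pairs differed by -0.33, -0.32 and -0.33 log2. The difference of -0.33 ± 0.12 (SE, 1.25-fold lower, limma adjusted p = 0.653) came from a probe set with the _x_at suffix. The 2 other probe sets of Kif22 differed by 0.011 and 0.027, and on both the groups overlapped.

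Kif11 (Eg5), the motor that separates spindle poles, read 10.68, 10.91 and 11.10 after Hlxb9 siRNA, against 11.17, 11.04 and 10.91 after control siRNA, a difference of -0.14 ± 0.14 log2 with overlapping groups. Kif23 (MKLP1), a motor of the central spindle, read 9.75, 9.57 and 9.55 after Hlxb9 siRNA, against 9.55, 9.50 and 9.45 after control siRNA. Its groups did not overlap, though Hlxb9 siRNA replicate 3 and control siRNA replicate 1 were equal at 2 decimals, and the difference was 0.13 ± 0.10. Kif20a, also of the central spindle, differed by -0.0021 ± 0.17, Kif2c (MCAK), which depolymerises microtubules, by -0.16 ± 0.21, and the chromokinesin Kif4 by -0.050 ± 0.16. All 3 were highest on control siRNA replicate 3, and without it they stood at 0.17, 0.10 and 0.12. Tpx2, an activator of Aurora A and a spindle assembly factor, had its lowest value on that array, with 11.44, 11.54 and 11.57 after Hlxb9 siRNA, against 11.64, 11.55 and 10.94 after control siRNA. Its difference of 0.14 ± 0.19 became -0.080 without it. Prc1, which bundles midzone microtubules, differed by 0.070 ± 0.11, and the cytokinesis scaffold Anln (anillin) by -0.073 ± 0.15.

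Mki67 and the chromosome structure genes had differences between -0.17 and 0.13 log2. Mki67, which encodes the Ki-67 antigen, read 12.44, 12.34 and 12.37 after Hlxb9 siRNA, against 12.36, 12.38 and 12.40 after control siRNA. The means differed by 0.0010 ± 0.094 log2 (95% interval -0.22 to 0.22), the narrowest interval of the 44. Top2a, the topoisomerase that untangles sister chromatids, read 11.49, 11.46 and 11.54 after Hlxb9 siRNA, against 11.51, 11.39 and 11.79 after control siRNA, a difference of -0.066 ± 0.13. The condensin core subunits Smc2 and Smc4 differed by -0.17 ± 0.13 and -0.14 ± 0.12, and the condensin I subunit Ncapd2 by -0.042 ± 0.14. Ncapg, another condensin I subunit, read 11.68, 11.58 and 11.52 after Hlxb9 siRNA, against 11.46, 11.49 and 11.42 after control siRNA. Its groups did not overlap, and the difference was 0.13 ± 0.098, while its other probe set stood at -0.085.

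**Figure D4:**
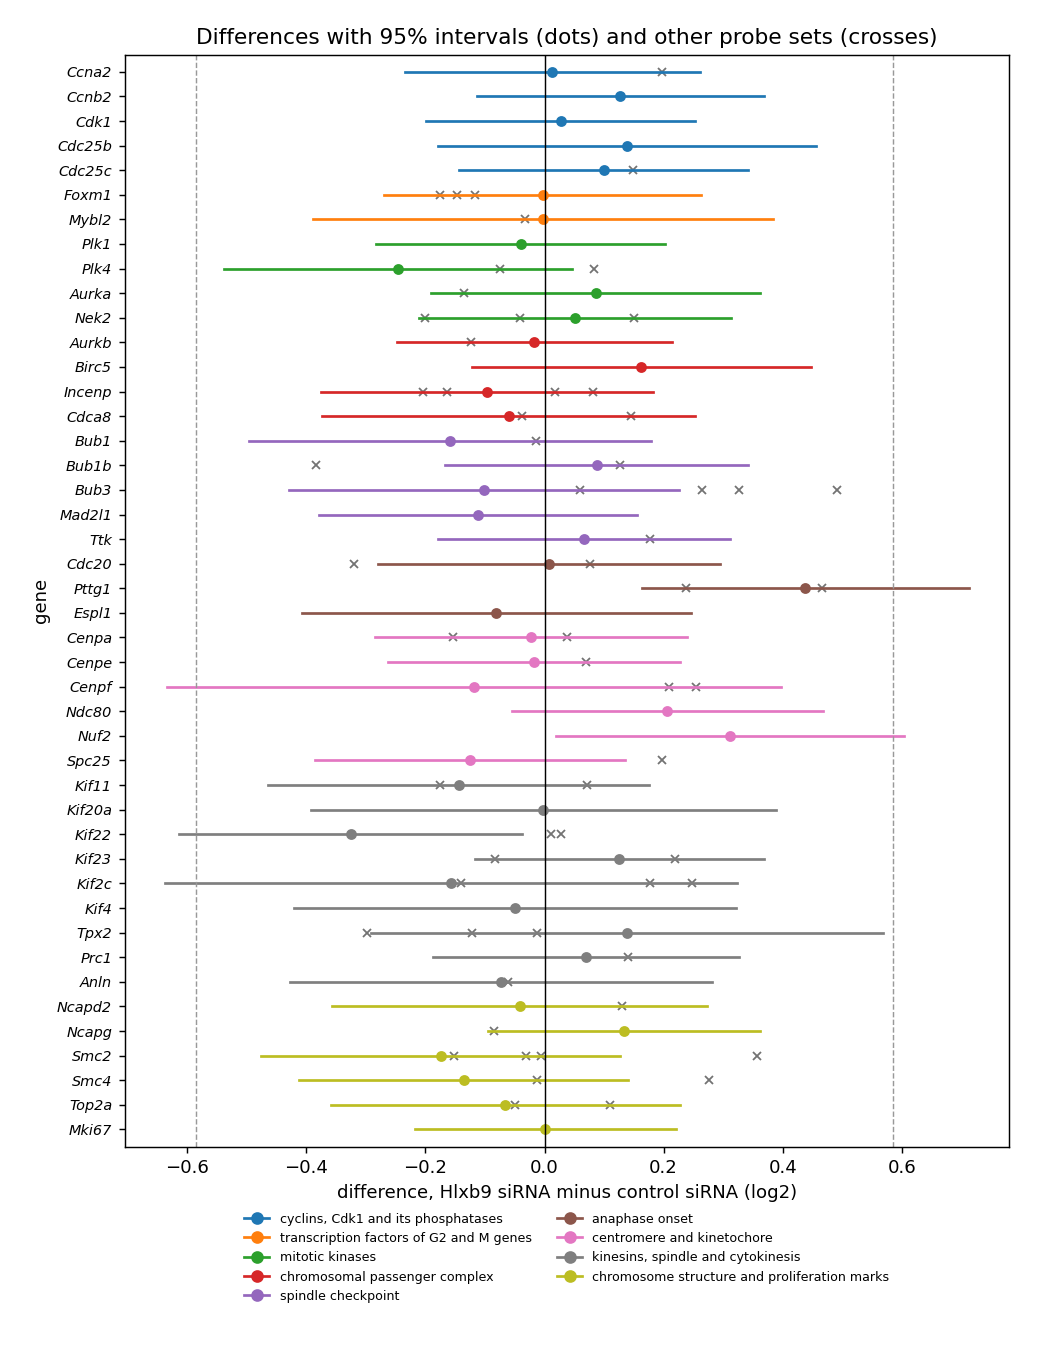
Difference between Hlxb9 siRNA and control siRNA (horizontal axis, log2) for the 44 genes, with dots and bars for the brightest probe set and its 95% interval, crosses for other probe sets, colours for roles and dashed lines at 1.5-fold. The intervals of Pttg1, Nuf2 and Kif22 leave out 0, and the crosses of Kif22 lie at 0 while those of Pttg1 lie above it.

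The reading of several genes depended on the probe set. Of the 44 genes, 32 had more than 1 probe set, 105 in all, and for 22 of these genes some probe set differed in the opposite direction from the brightest. For 7 genes, Bub3, Cenpf, Spc25, Kif2c, Tpx2, Smc2 and Smc4, both differences reached 0.1 log2 with opposite signs. Bub3 on its second brightest probe set read 10.34, 10.48 and 10.54 after Hlxb9 siRNA, against 10.34, 10.30 and 9.93 after control siRNA, a difference of 0.27. Control siRNA replicate 3 was the highest array on the brightest probe set of Bub3 and the lowest on this one. Of the other probe sets of Bub3, the dimmest differed by 0.49, and it lay below the median of all probe sets in both groups. Smc4 differed by 0.28 on the dimmest of its 3 probe sets and by -0.012 on the next brighter one. Of the 105 probe sets, 5 were higher and 2 lower at an unadjusted limma p of 0.05, beside 7.62% of all probe sets in either direction, and 0 passed after adjustment.

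Control siRNA replicate 3, the array with the high 3′ to 5′ ratio, held the highest or the lowest value of the 6 arrays for 29 of the 44 genes, against 58.0% of all genes. It was the highest for 19 of them, against 35.7%. Relative to the mean of the controls, the mean over the 44 genes was -0.027, -0.022 and 0.043 log2 on Hlxb9 siRNA replicates 1 to 3, against -0.029, -0.047 and 0.076 on control siRNA replicates 1 to 3. The groups overlapped in this mean, and the highest array was control siRNA replicate 3. Without it the median difference of the 44 genes was 0.061, beside 0.027 over all genes, with 30 differences above 0 and 14 below. In 17 genes the direction turned, against 20.9% of all genes. All Hlxb9 siRNA arrays then lay above both remaining controls for 12 genes and below them for 1, against 20.8% and 11.5% of all genes. The part of RNA quality in these values was not tested. With limma array weights, which gave that array the lowest weight, 455 genes or 2.50% of all genes were called and 0 of the 44, while 5 of the 44 had an unadjusted p under 0.05, against 24.6% of all genes. With the replicate number as a block, 2 had one, Pttg1 and Kif22, against 9.19%.

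**Figure D5:**
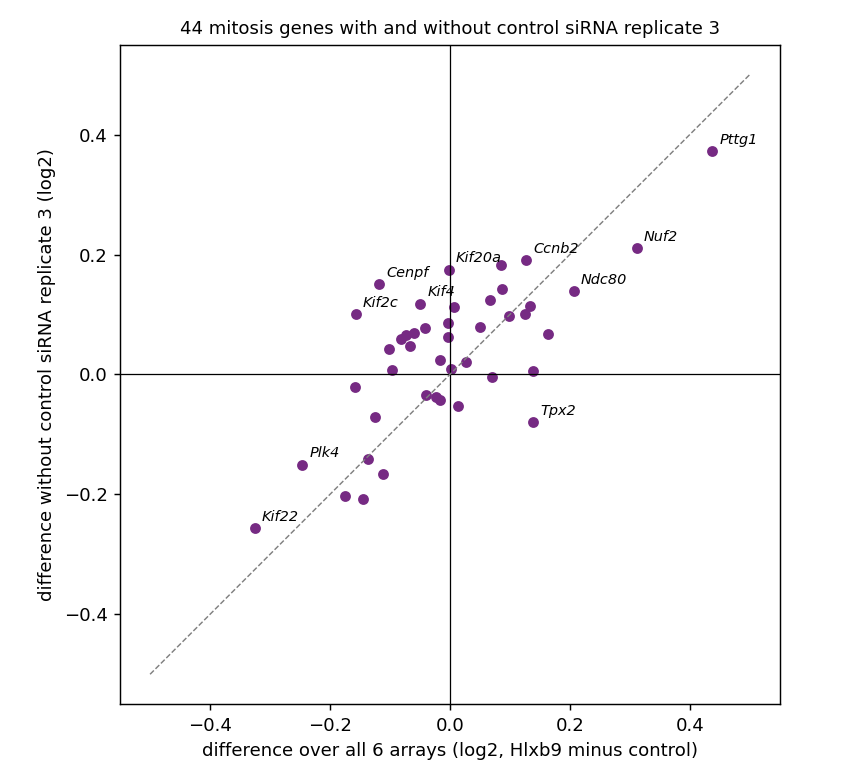
Difference of each of the 44 genes over all 6 arrays (horizontal axis, log2) against the difference without control siRNA replicate 3 (vertical axis, log2), with the line of equality dashed. Pttg1, Nuf2, Ndc80, Plk4 and Kif22 keep their direction, whereas Cenpf, Kif2c and Tpx2 cross 0.

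Other genes of mitosis were measured for 85 of 87 listed symbols. None passed limma's test after adjustment, 1 was higher (4.21% of all genes) and 4 were lower (3.74%) at an unadjusted p of 0.05, and the median difference was 0.0065. Groups did not overlap for 10 higher genes, beside 9.55% of all genes, and for 10 lower genes, beside 7.75%. Ect2, the exchange factor that activates RhoA at the division site, read 10.37, 10.41 and 10.73 after Hlxb9 siRNA, against 10.97, 10.82 and 11.11 after control siRNA. Its arrays did not overlap, and the difference was -0.46 ± 0.14 log2 (SE, limma adjusted p = 0.645), or -0.39 without control siRNA replicate 3. Ube2s, which extends ubiquitin chains for the anaphase-promoting complex, read 11.79, 11.80 and 11.85 after Hlxb9 siRNA, against 11.33, 11.70 and 10.72 after control siRNA. Its difference of 0.56 ± 0.23 stood at 0.30 without control siRNA replicate 3, its lowest array. Cenpj, a centriole protein, differed by 0.24 ± 0.10, and Sgo2a, a shugoshin that protects centromeric cohesin, by -0.34 ± 0.14.

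Cohesin and further condensin subunits lay mostly on the lower side, with 10 of 12 differences below 0. Over all genes 50.6% of differences were above 0. The median of these subunits was -0.11 log2, or -0.12 without control siRNA replicate 3. Rad21, the cohesin subunit that separase cuts, read 11.64, 11.53 and 11.61 after Hlxb9 siRNA, against 11.87, 11.81 and 12.18 after control siRNA. Its groups did not overlap, and the difference was -0.36 ± 0.13 (SE, limma adjusted p = 0.645). A second probe set of Rad21 stood at -0.35 and the dimmest of the 3 at 0.030. The condensin II subunit Ncapd3 differed by -0.34 ± 0.13, but its other probe sets stood at 0.11 and 0.31. The anaphase-promoting complex and its regulators had 11 of 16 differences above 0 and a median of 0.12. Ube2c, its initiating conjugating enzyme, differed by 0.30 ± 0.20, or 0.069 without control siRNA replicate 3, and Fzr1 (Cdh1), its late mitotic activator, by 0.28 ± 0.13. Among the remaining lists, differences above 0 numbered 11 of 16 for the inner centromere, with the centriole protein Cenpj counted in it. For outer kinetochore and checkpoint partners the count was 9 of 14. Spindle motors and microtubule factors had 5 of 15 above 0, and inhibitory and entry kinases, listed with Bora, had 3 of 6. Cytokinesis factors had 4 of 6, with Cdca2 and Cdca3 listed among them and both above 0. The medians of these lists ran from -0.0057 to 0.081. No median of a list was tested.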

How the data were processed

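RNA of MIN6 cells was measured on 6 arrays, 3 per group, hybridised with biotinylated cRNA made from 6 ug of total RNA, per the labels. As deposited, the values are log2 signals, and the submitters' processing notes name RMA and Partek without versions or settings. The file holds 45101 probe sets, of which 64 controls of the array maker were set aside. In the platform annotation, 34945 of the remaining 45037 carry a single gene symbol, 932 carry more, and 9160 are not named here. Precision is limited by the number of arrays.

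Groups were compared with limma 3.58.1 (R 4.3.3), using lmFit and eBayes on the log2 values with no covariate, two-sided, with Benjamini-Hochberg adjustment over 45037 probe sets. The procedure was tested on simulated data with known changes larger than any difference of the members. That test does not cover changes of the size seen here. Errors of differences are moderated SEs. The labels do not say whether replicates came from separate cultures beyond naming independent transfections, so p-values measure the spread between these arrays. All members are named. Values on every array are given for a fixed gene of each role, for the members with the smallest p, and for those whose groups do not overlap. Genes of the other mitosis list are those with the smallest p, with Spc24, Ube2c and Fzr1 added after their values were seen. The members and lists were chosen with earlier results of these data known.

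Deviations from group means correlated between arrays of equal number with r of 0.155, 0.165 and 0.202, each above 0.1. Between arrays of unequal number r ran from -0.206 to 0.072. These correlations are linked, since deviations cancel within each group. On the ground of the threshold of 0.1, arrays of equal number were treated as pairs. The block stayed an alternative to the unblocked fit reported. The pairing comes from the values, not from the labels. Alternatives were the replicate block, centring, repeated quantile normalization, an offset of 32, array weights, a trended robust prior, leaving out dim probe sets or each array, and other probe set rules.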

Additional observations from a re-analysis of the deposited data

How the results depend on the processing

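No alternative brought any of the 44 genes past limma's adjusted p of 0.05, with a smallest value of 0.0703 for Kif22 under array weights, and thresholds of 0.1 and 0.2 also called 0 on the reported fit. At an unadjusted p of 0.05 the reported fit has 3. Over all probe sets 0 were called in each fit except with array weights, which called 1132. The replicate block also called 0 probe sets and 0 of the 44 genes, with 2 of them at an unadjusted p of 0.05, Pttg1 and Kif22. The median of the 44 genes ran from -0.049 to 0.061 when 1 array was left out, and that of the other mitosis genes from -0.0069 to 0.052. The median of the other mitosis genes was -0.046 after centring and 0.053 with array weights. Genes without overlap between groups numbered 6 on all arrays, 5 higher and 1 lower, against 9.55% and 7.75% of all genes. Without control siRNA replicate 3 there were 13, with 12 higher and 1 lower, against 20.8% and 11.5% of all genes. The count of 13 was added after seeing the data.

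Direction turned in at least 1 alternative for 29 of the 44 genes, 26 of which differed by less than their SE. After centring the turned differences were Ccna2 at -0.039, Cdk1 at -0.025, Nek2 at -0.0012, Cdc20 at -0.045 and Mki67 at -0.051. After repeated quantile normalization Cdc20 stood at -0.0066, and with the offset Mybl2 stood at 0.0021. With array weights the turned differences were Ccna2 at -0.038, Foxm1 at 0.12, Mybl2 at 0.13, Incenp at 0.023, Cdca8 at 0.042, Bub3 at 0.018, Espl1 at 0.062, Cenpa at 0.041, Cenpf at 0.11, Kif20a at 0.17, Kif2c at 0.073, Kif4 at 0.17, Tpx2 at -0.0097, Prc1 at -0.023, Anln at 0.042, Ncapd2 at 0.072, Top2a at 0.060 and Mki67 at -0.023. With each gene's probe sets averaged the turned differences were Aurka at -0.025, Nek2 at -0.010, Cdca8 at 0.016, Bub1b at -0.056, Bub3 at 0.21, Cdc20 at -0.078, Cenpe at 0.026, Cenpf at 0.12, Spc25 at 0.036, Kif2c at 0.032, Tpx2 at -0.073, Ncapd2 at 0.044 and Smc4 at 0.043. On plain _at probe sets the turned differences were Incenp at 0.018, Cdca8 at 0.15, Bub3 at 0.27, Cenpa at 0.037, Spc25 at 0.20, Kif22 at 0.027 and Top2a at 0.11. Of the other mitosis genes named, Ncapd3 turned to 0.025 with averaged and 0.11 with plain _at probe sets. Leaving out 1 array gave ranges of -0.052 to 0.065 for Ccna2, -0.018 to 0.058 for Cdk1, -0.069 to 0.085 for Foxm1, -0.097 to 0.18 for Mybl2, -0.10 to 0.017 for Plk1, -0.015 to 0.13 for Nek2, -0.046 to 0.025 for Aurkb, -0.15 to 0.0067 for Incenp, -0.14 to 0.070 for Cdca8, -0.18 to 0.043 for Bub3, -0.073 to 0.11 for Cdc20, -0.16 to 0.059 for Espl1, -0.078 to 0.045 for Cenpa, -0.086 to 0.024 for Cenpe, -0.26 to 0.15 for Cenpf, -0.13 to 0.17 for Kif20a, -0.29 to 0.10 for Kif2c, -0.18 to 0.12 for Kif4, -0.080 to 0.27 for Tpx2, -0.0035 to 0.12 for Prc1, -0.16 to 0.066 for Anln, -0.14 to 0.078 for Ncapd2, -0.15 to 0.048 for Top2a and -0.028 to 0.023 for Mki67. Those genes have no direction that holds across these settings, and the causes were not tested.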
